A study of Mus musculus with 48 samples.

Results

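The 10 genes described here encode the glucose transporter GLUT1 (Slc2a1) and 9 enzymes of glycolysis and lactate formation (Gpi1, Pfkp, Aldoa, Tpi1, Pgk1, Pgam1, Eno1, Pkm and Ldha). They were taken by name from a table of 20007 genes, and all 10 were in it. The samples came from 16 mice injected intraperitoneally with sheep red blood cells, an antigen that sets off germinal center (GC) reactions in the spleen. By their labels, 8 of the mice carried a c-Rel transgene (mice 5 to 8 and 13 to 16) and 8 control mice did not (mice 1 to 4 and 9 to 12). The sources used here give neither the promoter of the transgene nor the age of the mice. From each spleen 1 library was made of naive B cells (sorted as high in IgD and low in IgM), 1 of GC B cells (B220, CD95 and GL7 on the surface, little CD38 and no IgD) and 1 of plasma cells (CD138 on the surface and little B220). Each library held the RNA of 1000 sorted cells, so that every group of population and genotype had 8 libraries and there were 48 in all. c-Rel, encoded by Rel, belongs to the NF-kB family of transcription factors, and the comparison asks what a gain of it changes in these B cells.

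Glycolysis splits glucose into pyruvate in the cytosol and yields ATP, NADH and building blocks for nucleotides, amino acids and lipids. Lymphocytes that become activated usually take up more glucose and raise these enzymes, and lactate dehydrogenase then regenerates NAD by turning pyruvate into lactate. GC B cells divide fast in the follicle, whereas plasma cells devote much of their RNA to immunoglobulin.

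Values were unique molecular identifiers (UMIs), that is, molecules counted once each by a tag near the 3′ end of the messenger RNA, and they are not divided by gene length. Levels are given in CPM, counts scaled to a common library total, corrected by TMM, a scaling that sets the bulk of genes level between libraries; SDs are over 8 mice. Libraries held 97993 to 159857 UMIs in naive B cells, 401207 to 695137 in GC B cells and 481229 to 794273 in plasma cells. The 10 genes took a median of 0.227% of the UMIs of control naive B cells, 0.387% of control GC B cells and 0.0820% of control plasma cells, where immunoglobulin genes took 50.3 ± 2.06% (SD, n = 8). The marker sums followed the labels: the median over 6 naive B cell markers was 5015 CPM in control naive B cells and 625 CPM in control GC B cells, that over 6 GC markers was 1271 CPM in control GC B cells and at most 85.6 CPM in any naive or plasma cell group, and that over 6 plasma cell markers was 111926 CPM in control plasma cells. The T cell markers Cd3e, Cd3d, Cd3g, Trac, Cd8a, Cd4 and Thy1 summed to a median of 91.4 CPM in control and 36.2 CPM in transgenic plasma cells and to at most 7.28 CPM in the other groups. Rel itself had 4 to 12 UMIs in each control GC library and 11 to 28 in each transgenic one, a log2 fold change of 1.08 (SE 0.22, edgeR adjusted p = 0.00105). Transgenic plasma cells had 18 Rel UMIs over 8 libraries against 1 in control plasma cells, and naive B cells had 34 against 35. These were too few for a test within either population. In a fit of all 48 libraries the transgene effect on Rel was larger in plasma cells than in naive B cells. That difference was 3.38 on the log2 scale (SE 0.93, edgeR adjusted p = 0.0372) and rests on those few UMIs. The differences GC minus naive (1.27, adjusted p = 0.324) and plasma minus GC (2.10, adjusted p = 0.261) did not pass. As Rel has few UMIs and the tag may lie outside the transgene, these values are a limited check of the genotype.

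In GC B cells, 6 of the 10 glycolytic genes were higher in transgenic than in control mice. Of the 8 that could be tested, 6 rose (Pfkp, Aldoa, Tpi1, Eno1, Pkm and Ldha, between 1.24-fold and 1.57-fold) and none fell, all 8 estimates being above 0. In the same comparison 3.58% of 6393 genes were higher and 7.68% changed in either direction at an edgeR adjusted p under 0.05. The median log2 fold change was 0.39 over the 8 genes and -0.0023 over all genes tested. Each of the 8 had at least 14 UMIs in every GC library, so none entered the test through 1 genotype alone. Summed over the 10 genes, the level ran from 2600 to 2967 CPM (median 2847 CPM) in controls and from 3242 to 4873 CPM (median 3857 CPM) in transgenic mice, and the lowest transgenic library stood above the highest control.

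**Figure D1:**
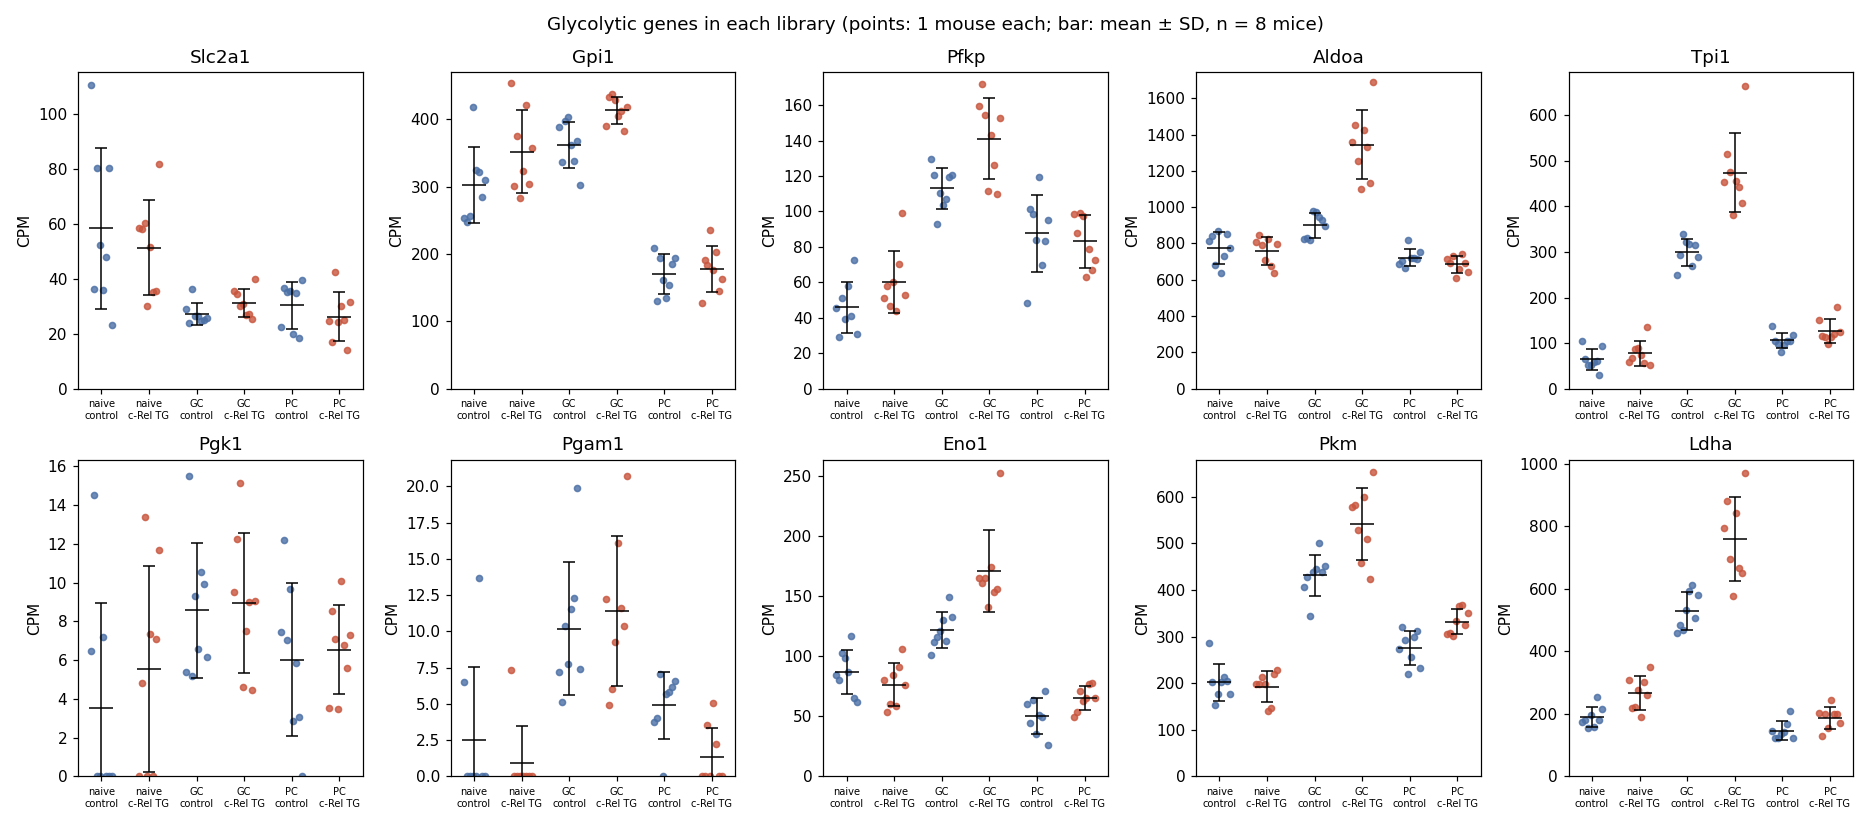
Level of each of the 10 genes in CPM (vertical axis, starting at 0, 1 panel per gene) in the 6 groups of population and genotype; points are single mice, blue for controls and red for c-Rel transgenic (TG) mice, and bars are the mean ± SD over 8 mice. In the GC columns the red points of Aldoa and Tpi1 lie above every blue point, while Pgk1 and Pgam1 never exceed 20.7 CPM.

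Slc2a1 (chromosome 4, 119108711 to 119137983, plus strand), which brings glucose into the cell, ran from 24.1 to 36.2 CPM (median 26.1 CPM) in control GC B cells and from 25.2 to 40.1 CPM (median 30.6 CPM) in transgenic ones. The ranges overlapped, with 1 transgenic library above all controls. The log2 difference was 0.19 with a 95% interval from -0.13 to 0.51 (edgeR adjusted p = 0.537), an interval that leaves room for a rise as large as that of Pkm. Gpi1 (chromosome 7, 34201330 to 34230336, minus strand) converts glucose 6-phosphate into fructose 6-phosphate. It ran from 303 to 403 CPM (median 365 CPM) in controls and from 383 to 437 CPM (median 415 CPM) in transgenic mice, and 6 of 8 transgenic libraries lay above all controls. The difference of 0.18 (95% interval 0.05 to 0.30, adjusted p = 0.0765) did not pass the threshold.

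Pfkp (chromosome 13, 6579768 to 6648777, minus strand) is the platelet-type subunit of phosphofructokinase, which commits sugar to glycolysis. Its level ran from 93.2 to 130 CPM (median 115 CPM) in control and from 110 to 172 CPM (median 148 CPM) in transgenic GC B cells, and 5 transgenic libraries lay above all controls. This made a log2 fold change of 0.31 (SE 0.10, edgeR adjusted p = 0.0346). The call of Pfkp was the least secure of the 6: it was lost in 8 of 16 fits that left out 1 library, with DESeq2 (adjusted p = 0.0649) and in counts thinned to 401207 UMIs per library (adjusted p = 0.0566). The libraries concerned were the controls 3, 4, 9 and 10 and the transgenic mice 5, 6, 7 and 16, without which the log2 fold change was between 0.26 and 0.30. The call of Pfkp was also lost in mice 1 to 8 alone and in mice 9 to 16 alone.

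Aldoa (chromosome 7, 126795234 to 126800751, minus strand), the aldolase that cuts fructose 1,6-bisphosphate into 3-carbon sugars, ran from 818 to 980 CPM (median 912 CPM) in control GC B cells. In transgenic GC B cells it ran from 1100 to 1691 CPM (median 1345 CPM), so that the groups did not overlap. The rise was 1.48-fold (log2 0.56, SE 0.06, edgeR adjusted p = 9.70e-08). Tpi1 (chromosome 6, 124810586 to 124814296, minus strand), which interconverts the sugars that aldolase makes, ran from 249 to 340 CPM (median 304 CPM) in controls and from 381 to 663 CPM (median 455 CPM) in transgenic mice. Its groups did not overlap either, and its fold change of 1.57 (log2 0.65, SE 0.08, adjusted p = 1.19e-05) was the largest of the 8. For comparison, 0.328% of the 6393 tested genes had all 8 transgenic GC libraries above all 8 controls.

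The later enzymes were counted very unequally. Pgk1 (chromosome X, 106187100 to 106203699, plus strand) and Pgam1 (chromosome 19, 41911923 to 41918660, plus strand) make the first glycolytic ATP and move the phosphate of 3-phosphoglycerate. They had 42 and 50 UMIs over the 8 control GC libraries and 54 and 70 over the 8 transgenic ones, and neither passed the filter on low counts in any population. Eno1 (chromosome 4, 150236721 to 150248879, plus strand), the enolase that makes phosphoenolpyruvate, ran from 101 to 149 CPM (median 118 CPM) in control GC B cells and from 141 to 252 CPM (median 163 CPM) in transgenic ones. All but 1 of the transgenic libraries lay above all controls, and the log2 fold change was 0.47 (SE 0.10, edgeR adjusted p = 0.00116). Pkm (chromosome 9, 59656368 to 59679375, plus strand), pyruvate kinase of muscle and dividing cells, ran from 343 to 500 CPM (median 439 CPM) and from 424 to 654 CPM (median 553 CPM). There 6 transgenic libraries lay above all controls, and the log2 fold change was 0.31 (SE 0.07, adjusted p = 0.00370). The call of Pkm was lost in mice 9 to 16 alone (0.24, edgeR adjusted p = 0.189), and that of Eno1 in mice 1 to 8 alone and in mice 9 to 16 alone.

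Ldha (chromosome 7, 46841475 to 46855627, plus strand), which reduces pyruvate to lactate, ran from 458 to 614 CPM (median 519 CPM) in control GC B cells and from 577 to 971 CPM (median 745 CPM) in transgenic ones. The ranges met only at the lowest transgenic library, mouse 8, and the other 7 lay above all controls. Its log2 fold change was 0.50 (SE 0.09, edgeR adjusted p = 0.00220).

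Some other measures differed between the genotypes in GC B cells and others did not pass a test. Their part in the rise was not tested except where said. Transgenic GC libraries were deeper (560382 ± 75238 UMIs against 453596 ± 60965, SD, n = 8); in counts thinned to 1 depth, 5 of the 6 genes were called, Pfkp being the exception. The 6 naive B cell markers summed to 466 to 769 CPM (median 625 CPM) in controls and to 235 to 659 CPM (median 422 CPM) in transgenic mice, none of the 6 was at 0, and 1 of the 3 that could be tested fell (Fcmr, log2 -0.63, adjusted p = 0.0361). The 6 plasma cell markers summed to 1048 to 1440 CPM (median 1243 CPM) and to 1125 to 2352 CPM (median 1385 CPM), and of the 3 that could be tested 0 were called. The 6 GC markers summed to 1140 to 1380 CPM (median 1271 CPM) in controls and to 1131 to 1304 CPM (median 1175 CPM) in transgenic mice; 2 of them fell, Bcl6 among these (log2 -0.48, adjusted p = 7.80e-04), and 4 did not pass the test. The 6 proliferation markers (Mki67, Top2a, Cdk1, Ccnb1, Birc5 and Plk1) summed to 933 to 1475 CPM (median 1334 CPM) against 1173 to 1588 CPM (median 1393 CPM). Their median log2 fold change was 0.04, with edgeR adjusted p-values of 0.228 to 0.957. Of the 6, 1 (Top2a) had an unadjusted p under 0.05, as did 1393 of all 6393 genes tested. Hemoglobin and platelet genes summed to 18.1 to 390 CPM (median 62.4 CPM) in controls and to 9.53 to 875 CPM (median 103 CPM) in transgenic mice, and the 1 that could be tested was not called.

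The start regions of 4 of the genes are shown because Aldoa and Tpi1 had the clearest rise, Ldha ends the pathway and Slc2a1 opens it without a detected change. Each is 300 bases around an annotated start of transcription, from RefSeq on GRCm38.p6, printed 5′ to 3′ on the gene's own strand; capitals mark 3 short words on either strand. The first, ACGTG, and the second, GCGTG, are core letters to which hypoxia-inducible factors bind. The third, CACGTG, is the E-box bound by Myc, and each such E-box also counts as a match of the first word. The Ldha region lies at chr7:46845554-46845853 (plus strand), that of Aldoa at chr7:126799129-126799428 (minus strand), that of Tpi1 at chr6:124814109-124814408 (minus strand) and that of Slc2a1 at chr4:119108495-119108794 (plus strand).
Ldha: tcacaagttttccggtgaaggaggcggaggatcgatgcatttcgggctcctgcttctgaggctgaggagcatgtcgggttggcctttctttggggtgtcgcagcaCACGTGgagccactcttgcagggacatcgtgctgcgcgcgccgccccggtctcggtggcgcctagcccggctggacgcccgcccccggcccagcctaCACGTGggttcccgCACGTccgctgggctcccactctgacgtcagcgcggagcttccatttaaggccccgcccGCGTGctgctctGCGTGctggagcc
Aldoa: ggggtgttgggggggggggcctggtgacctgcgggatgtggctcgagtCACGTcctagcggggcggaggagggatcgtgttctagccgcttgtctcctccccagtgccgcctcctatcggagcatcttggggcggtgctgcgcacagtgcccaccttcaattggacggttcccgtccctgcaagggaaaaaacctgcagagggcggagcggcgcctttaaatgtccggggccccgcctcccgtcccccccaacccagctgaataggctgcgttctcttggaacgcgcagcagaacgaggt
Tpi1: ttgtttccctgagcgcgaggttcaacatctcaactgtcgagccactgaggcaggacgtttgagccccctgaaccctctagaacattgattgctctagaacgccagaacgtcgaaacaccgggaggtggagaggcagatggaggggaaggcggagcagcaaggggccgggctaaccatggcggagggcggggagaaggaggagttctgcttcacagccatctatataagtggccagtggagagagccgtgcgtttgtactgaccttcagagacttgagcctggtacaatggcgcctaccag
Slc2a1: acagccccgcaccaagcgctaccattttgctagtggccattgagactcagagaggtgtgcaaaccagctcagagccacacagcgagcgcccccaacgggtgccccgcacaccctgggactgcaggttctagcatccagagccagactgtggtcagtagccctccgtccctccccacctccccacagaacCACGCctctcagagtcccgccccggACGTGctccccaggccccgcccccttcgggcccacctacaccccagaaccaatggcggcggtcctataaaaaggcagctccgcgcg

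Ldha carries CACGTG at positions -145 and -48 from the start, a further ACGTG at -34 on the minus strand and GCGTG at 26 and 38. Aldoa carries 1 ACGTG at -202 (minus strand), Slc2a1 carries 1 ACGTG at -36 and 1 GCGTG at -61 (minus strand), and the Tpi1 region holds none of the 3 words. Over all annotated starts, ACGTG was in 6 of the 10 genes and in 21.8% of the 27025 genes with a listed region. GCGTG was in 5 of 10 genes against 35.2%, CACGTG in 1 of 10 (Ldha) against 8.09%, and the GC box GGGCGG in 10 of 10 against 38.2%. The TATA box TATAAA was in 1 of 10 (Slc2a1) against 15.7%. The kappaB consensus bound by NF-kB was in 0 of 10 against 5.14%. These are matches of letters in short windows, described without regard to base composition or to the number of regions per gene. Aldoa, Eno1, Pkm and Ldha each had more than 1 region, and the 27025 genes had 32851. A gene with more regions has more room for a match. The matches show no binding, and a missing match says nothing about a factor.

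Within GC B cells the transgenic mice differed from each other, and most of the genes differed together. Mouse 16 had the highest level of Slc2a1, Aldoa, Tpi1, Eno1, Pkm and Ldha, and mice 6 and 13 had the next highest Aldoa and Ldha. Mice 8 and 15 had the lowest Aldoa, Tpi1, Pkm and Ldha of the transgenic mice. After the group means were removed, the correlation over the 16 GC libraries was 0.90 between Aldoa and Ldha, 0.87 between Pkm and Ldha, 0.86 between Aldoa and Pkm and 0.81 between Tpi1 and Eno1. Over all 28 pairs of the 8 genes the median correlation was 0.45, and 24 pairs were above 0. Gpi1 stood apart, with correlations from -0.26 to 0.25 with the other enzymes. In plasma cells the median over the same pairs was -0.05, and 13 of 28 were above 0. These values share libraries and scaling and are descriptions; plasma cell libraries also held fewer UMIs of these genes (a median of 486 per control library against 1706 in GC B cells).

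**Figure D2:**
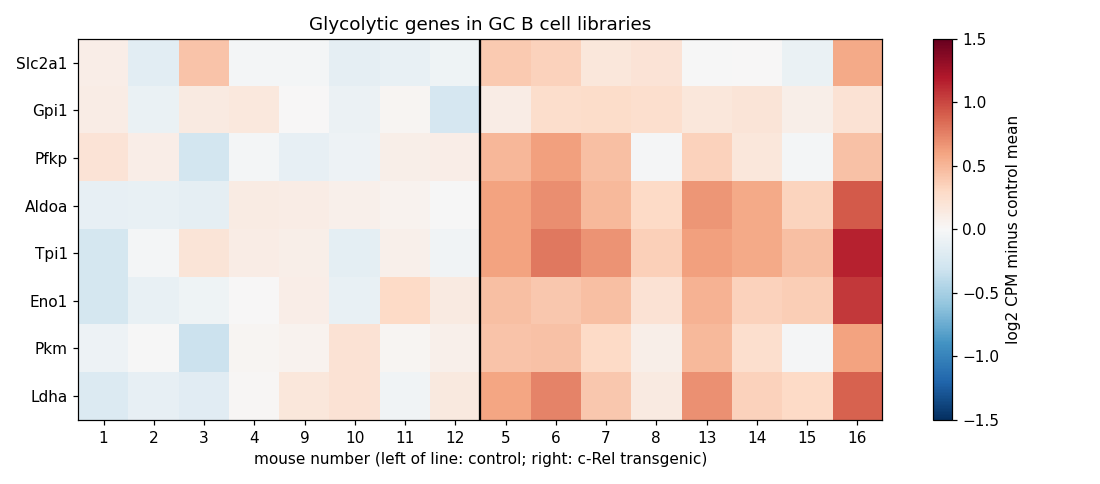
Log2 CPM of the 8 tested genes in each of the 16 GC B cell libraries, as the difference from the mean of the 8 controls (colour scale); columns are mice, controls left of the line and c-Rel transgenic mice right of it. Mouse 16 is the darkest column, mice 8 and 15 are the palest of the transgenic mice, and the Gpi1 row varies little.

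In naive B cells no change with the transgene was called. Only Gpi1, Aldoa, Eno1, Pkm and Ldha had enough UMIs, and edgeR called 0 of these 5, as did DESeq2; 1 of 5 had an unadjusted p under 0.05. Over 2131 genes tested, 1.13% were called and 242 had an unadjusted p under 0.05. That 1 gene was Ldha, which ran from 154 to 254 CPM (median 182 CPM) in control and from 191 to 351 CPM (median 269 CPM) in transgenic naive B cells. All 8 transgenic libraries lay above the control median and 5 above all controls, for a log2 difference of 0.46 (95% interval 0.20 to 0.72, edgeR adjusted p = 0.0663). The adjusted p fell to between 0.0308 and 0.0474 when the library of control mouse 10 or 12 or of transgenic mouse 7 or 13 was left out, with differences of 0.49 to 0.54. In the same naive B cells the plasma cell markers summed to 411 to 1982 CPM (median 1268 CPM) in controls and to 1013 to 4116 CPM (median 1860 CPM) in transgenic mice. Each of the 6 had UMIs in both genotypes, 2 could be tested and 0 were called. The part of these markers in the Ldha value was not tested. Aldoa was level, at 635 to 870 CPM against 637 to 848 CPM (log2 difference -0.05, 95% interval -0.20 to 0.11). The differences of Gpi1, Eno1 and Pkm were 0.18, -0.23 and -0.09, with adjusted p-values of at least 0.581.

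In plasma cells 8 of the genes were tested and edgeR called 0 of them, as did DESeq2, while 3 of 8 (Eno1, Pkm and Ldha) had an unadjusted p under 0.05. Over 4538 genes tested, 6.35% were called and 846 had an unadjusted p under 0.05. Pkm ran from 220 to 321 CPM (median 283 CPM) in control and from 301 to 368 CPM (median 330 CPM) in transgenic plasma cells, with all 8 transgenic libraries above the control median and 5 above all controls. Its log2 difference was 0.26 (95% interval 0.08 to 0.44, edgeR adjusted p = 0.0753). Ldha ran from 122 to 210 CPM (median 139 CPM) and from 128 to 244 CPM (median 199 CPM), a difference of 0.34 (95% interval 0.10 to 0.58, adjusted p = 0.0924). Both passed on library totals without TMM (Pkm 0.35, adjusted p = 0.0230; Ldha 0.42, adjusted p = 0.0360), a scaling that set the median of all genes at 0.09. Leaving out 1 library also made a call: Pkm without control mouse 2 (0.30, adjusted p = 0.0387), Ldha without control mouse 11 (0.43, adjusted p = 0.0238) or transgenic mouse 6 (0.41, adjusted p = 0.0379). Aldoa ran from 663 to 820 CPM in controls and from 608 to 742 CPM in transgenic mice, with a difference of -0.09 (95% interval -0.23 to 0.05) and no transgenic library above the controls. The other 4, Slc2a1, Gpi1, Pfkp and Tpi1, lay between -0.22 and 0.25. In these plasma cells the sum over 6 plasma cell markers was 92590 to 150478 CPM (median 111926 CPM) in controls and 55015 to 106169 CPM (median 80977 CPM) in transgenic mice. Tested singly, 2 of these 6 were lower and 4 were not called. Of the 6 proliferation markers 3 could be tested: Mki67 rose (log2 1.09, edgeR adjusted p = 0.00243) and the other 2 were not called. The naive B cell markers summed to 183 to 374 CPM (median 296 CPM) in controls and to 81.5 to 183 CPM (median 143 CPM) in transgenic mice, and the T cell markers had the medians of 91.4 and 36.2 CPM given above; the part of all these markers in the Pkm and Ldha values was not tested.

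**Figure D3:**
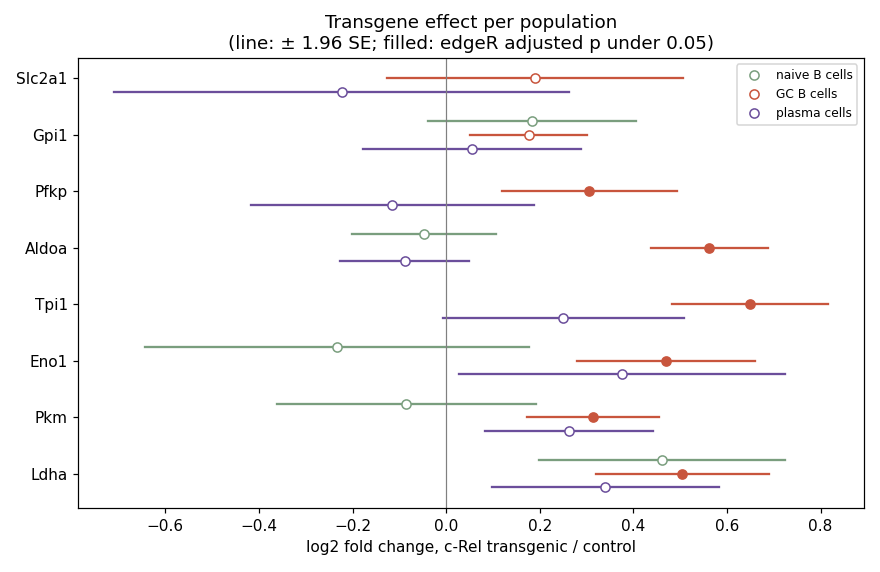
Log2 fold change of c-Rel transgenic over control mice (horizontal axis) for the 8 genes in naive B cells (green; only 5 genes tested there), GC B cells (red) and plasma cells (purple); lines are 95% intervals, and filled points passed an edgeR adjusted p under 0.05. The 6 filled points are all in GC B cells, and Aldoa is the gene whose GC interval lies clear of its other intervals.

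The difference between populations in the transgene effect was itself tested in a fit of all 48 libraries, where the 8 genes could be tested. Aldoa was the 1 gene of the 8 whose effect differed between GC and naive B cells (log2 0.61 higher in GC, SE 0.10, edgeR adjusted p = 2.86e-04), in a comparison where 0.129% of 7744 genes were called and Aldoa was the only gene called higher (0.0129%). Aldoa was also the 1 gene whose effect differed between plasma cells and GC B cells (log2 -0.66, SE 0.10, adjusted p = 8.56e-07), where 1.58% of the 7744 genes were called. The comparisons share the GC libraries. The other 7 genes lay between -0.06 and 0.70 in the first comparison and between -0.43 and -0.05 in the second, so that Tpi1, Eno1, Pkm and Ldha cannot be said to respond in GC B cells and not elsewhere. Between plasma cells and naive B cells edgeR called 0 of 8 genes, as did DESeq2, beside 1.16% of all genes called. An unadjusted edgeR p under 0.05 was reached by 2 of the 8 and by 749 of all 7744 genes. In mice 1 to 8 alone the GC against naive difference of Aldoa was 0.59 (adjusted p = 0.146) and in mice 9 to 16 alone it was 0.61 (adjusted p = 0.1065): the size was alike but neither set of 8 mice passed the threshold.

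Between the populations of control mice, most of the glycolytic genes were highest in GC B cells. Of the 8 tested genes, 7 were higher and 1 was lower in GC than in naive B cells, where 49% of 7744 genes were called and 24.7% were higher. Tpi1 stood furthest apart, at 29.2 to 104 CPM (median 59.7 CPM) in naive B cells and 249 to 340 CPM in GC B cells, a log2 fold change of 2.21 (SE 0.15, edgeR adjusted p = 8.56e-29). It was followed by Ldha (1.48, adjusted p = 2.92e-18), Pfkp (1.29, adjusted p = 1.19e-09) and Pkm (1.09, adjusted p = 3.57e-18). Eno1 (0.48), Gpi1 (0.26) and Aldoa (0.21) rose less. The calls of Gpi1 and Aldoa were lost in counts thinned to 97993 UMIs per library and in a fit of those 2 groups alone. In mice 1 to 8 alone the calls of Eno1 (0.31, edgeR adjusted p = 0.275) and Aldoa (0.12, adjusted p = 0.407) were lost. In mice 9 to 16 alone that of Gpi1 was lost (0.17, adjusted p = 0.377). Slc2a1 moved the other way: it ran from 23.2 to 110 CPM (median 50.1 CPM) in naive B cells, on 3 to 17 UMIs per library, and fell by 1.12 on the log2 scale to GC B cells (adjusted p = 1.97e-05). Its call was lost in mice 9 to 16 alone (-0.86, adjusted p = 0.0617). In transgenic mice the same 7 genes rose and Slc2a1 fell (53.7% of genes called, 27.4% higher), with Tpi1 at 2.62, Aldoa at 0.82, Eno1 at 1.18 and Slc2a1 at -0.73. There the call of Gpi1 (0.24) was lost in thinned counts (adjusted p = 0.316), in the fit of 2 groups (adjusted p = 0.113) and in either set of 8 mice. That of Slc2a1 was lost without a filter on low counts (adjusted p = 0.0748) and in either set of 8 mice.

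**Figure D4:**
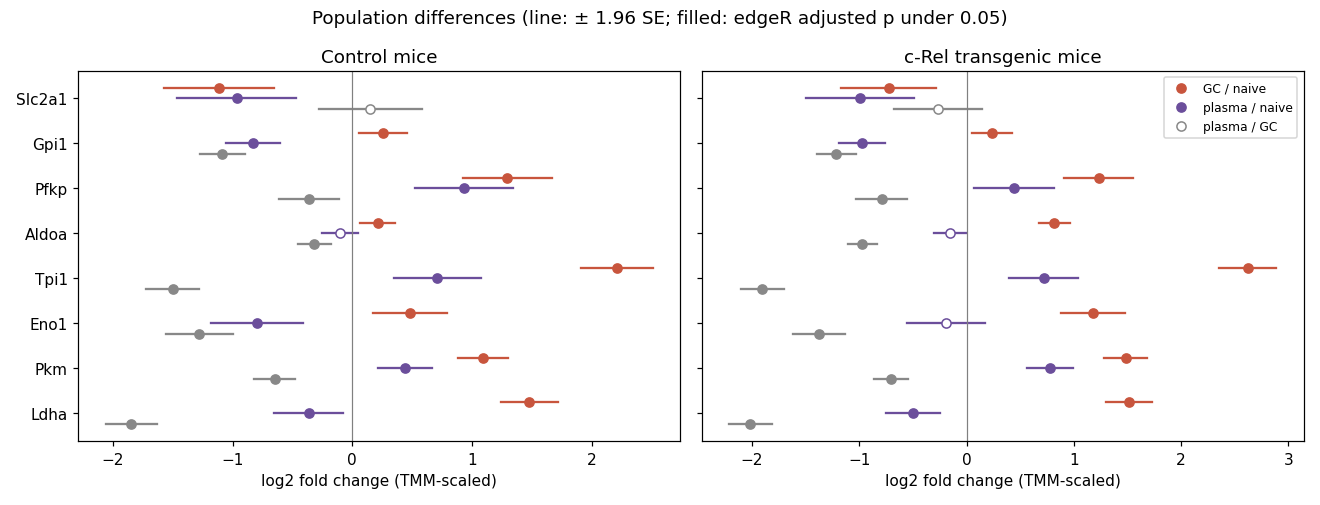
Log2 fold changes between populations (horizontal axis, TMM-scaled) for the 8 tested genes in control mice (left) and c-Rel transgenic mice (right): GC over naive (red), plasma over naive (purple) and plasma over GC (grey), with 95% intervals; filled points passed an edgeR adjusted p under 0.05. Red points lie right of 0 and grey points left of it for every gene except Slc2a1; without TMM the purple points of Pfkp, Tpi1 and Pkm move to the left of 0 in both panels.

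Plasma cells had lower levels than GC B cells for 7 of the 8 genes in both genotypes, beside 63.2% of genes called and 33.3% lower in controls and 67.2% called and 36.4% lower in transgenic mice. The falls in controls were led by Ldha (fell by 1.84 on the log2 scale, SE 0.11, edgeR adjusted p = 8.28e-27), with Tpi1, Eno1 (fell by 1.28) and Gpi1 (fell by 1.09) after it, and the smallest were those of Pfkp (fell by 0.36) and Aldoa (fell by 0.32). The call of Pfkp was lost without the control plasma cell library of mouse 1 (-0.26, adjusted p = 0.0704), in thinned counts (adjusted p = 0.374), in mice 9 to 16 alone (adjusted p = 0.140) and in the fit of 2 groups (adjusted p = 0.0621). In thinned counts the call of Aldoa was lost too (-0.17, adjusted p = 0.168), as was that of Pfkp in transgenic mice (-0.44, adjusted p = 0.106). In transgenic mice Ldha fell by 2.02, Tpi1 fell by 1.90 and Aldoa fell by 0.97. Slc2a1 did not pass in either genotype (0.15 and -0.27). Without TMM its value in controls was -1.25 (edgeR adjusted p = 4.4e-08), still above the median of all genes, which that scaling moved to -1.48. In transgenic mice Slc2a1 was called lower without TMM (-1.57, adjusted p = 1.5e-12), below the median of -1.39. It was also called lower there without both immunoglobulin genes and TMM (-0.60, adjusted p = 0.00596), below the median of -0.42.

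Against naive B cells the plasma cells of control mice had lower Slc2a1 (-0.97), Gpi1 (-0.83), Eno1 (-0.79) and Ldha (-0.37) at an edgeR adjusted p under 0.05, and higher Pfkp (0.93), Tpi1 (0.71) and Pkm (0.44), although on library totals without TMM these last 3 turned to -0.41, -0.64 and -0.91. That scaling lets the immunoglobulin share count and moved the median of all genes to -1.34, so that Pfkp, Tpi1 and Pkm then lay above that median. With immunoglobulin genes left out as well as TMM, the median was -0.34, Pfkp was still called higher and the calls of Tpi1 (0.35, adjusted p = 0.113) and Pkm (0.08, adjusted p = 0.574) were lost. The call of Ldha lay near the threshold (edgeR adjusted p = 0.0330). It was lost in 12 of 16 fits without 1 library (adjusted p up to 0.160) and with DESeq2 (adjusted p = 0.0735). Another size factor (adjusted p = 0.0609), no filter on low counts (0.15), thinned counts (0.0785) and either set of 8 mice also lost it. Here 49.6% of the 7744 genes were called. Aldoa was not called (-0.10, edgeR adjusted p = 0.279). It was called lower without TMM (-1.45, adjusted p = 1.23e-38) and without both immunoglobulin genes and TMM (-0.46, adjusted p = 8.23e-08). In both it lay below the median of all genes. In transgenic mice 53.2% of genes were called, Pfkp (0.44), Tpi1 (0.72) and Pkm (0.78) were higher, turning to -0.80, -0.52 and -0.46 without TMM, and Slc2a1 (-0.99), Gpi1 (-0.97) and Ldha (-0.50) were lower. The call of Pfkp was lost without the naive library of transgenic mouse 7 (0.38, adjusted p = 0.0958), without both immunoglobulin genes and TMM (0.16, adjusted p = 0.503), in mice 9 to 16 alone (0.12, adjusted p = 0.772) and in the fit of 2 groups (adjusted p = 0.0525). That of Ldha was lost in thinned counts (-0.34, adjusted p = 0.102). Aldoa (-0.15) and Eno1 (-0.19) were not called in transgenic mice. Without TMM both were called lower (-1.40 and -1.43, median of all genes -1.23). Without immunoglobulin genes and TMM both were again called lower (-0.44 and -0.48, median -0.25). Aldoa was also called lower in thinned counts (-0.28, adjusted p = 0.023) and in the fit of 2 groups (-0.18, adjusted p = 0.039). As whole populations of cells were counted, fewer cells with a transcript and less of it per cell cannot be told apart.

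The tag position limits some of these counts. In the last 500 bases of its longest coding transcript, 75.2% of the 50-base windows of Eno1 were found again in 5 other genes, 4 of them pseudogenes, and 82.3% of those of its near-copy Eno1b; of 7025 tested genes 2.70% shared more than 50% of their windows. Eno1 is therefore uncertain, and the sum of Eno1 and Eno1b ran from 112 to 169 CPM (median 134 CPM) in control and from 164 to 288 CPM (median 186 CPM) in transgenic GC B cells. Gapdh, the glycolytic enzyme between Tpi1 and Pgk1, shared 90.5% of its windows with 138 genes, 135 of them pseudogenes, and had 21 UMIs over the control and 28 over the transgenic GC libraries. How reads that match several genes were counted is not given in the labels or processing notes. Its part in the low Gapdh count, and in the 607 UMIs of Eno1 in control GC B cells, was not tested. Pgk1 shared 7.32% of its windows with 5 pseudogenes, Gpi1 4.21% and Aldoa 3.33%, and Pgam1, Pfkp, Tpi1, Pkm, Ldha and Slc2a1 shared none. Only exact matches to annotated transcripts were sought, and the cause of the low counts of Pgk1 and Pgam1 was not tested. Aldoa overlaps Fam57b, Tpi1 overlaps Spsb2, Pfkp overlaps Pitrm1, Gpi1 overlaps Gm26762 and Slc2a1 overlaps Gm12867 and Gm12868 on the opposite strand, and whether the counting used strand is not given in the sources used here. Pkm overlaps Gm49759 and Slc2a1 overlaps Mir1957a on the same strand.

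Other genes of the pathway were taken from lists named in the methods. Of 17 other isoforms of glycolytic enzymes and transporters 3 could be tested in GC B cells, and Eno1b rose with the transgene (log2 0.90, SE 0.22, edgeR adjusted p = 0.00615), with the same doubt about shared windows. Of 15 regulators 5 could be tested and Myc, a transcription factor that activates many glycolytic genes, rose (log2 0.81, SE 0.16, adjusted p = 0.00144). Its level was 52.9 ± 15.2 CPM in control and 94.4 ± 23.3 CPM in transgenic GC B cells (SD, n = 8). Hif1a (0.34, adjusted p = 0.0557) did not pass. Of 18 genes of pyruvate and lactate handling 12 were tested and Pdk1, the kinase that holds back pyruvate dehydrogenase, rose (log2 1.03, SE 0.24, adjusted p = 0.00464). Of 10 genes of the pentose phosphate pathway, which branches off at glucose 6-phosphate, 9 were tested and Pgd (0.29, adjusted p = 0.0153) and Tkt (0.19, adjusted p = 0.0287) rose. No gene of these 4 lists was called lower in GC B cells. Set beside the 3.58% of all tested genes that were higher, 1 of 3, 1 of 5, 1 of 12 and 2 of 9 are counts of 1 or 2 genes, and nothing is read from them about the lists. The Pdk1 effect also differed between plasma cells and GC B cells (log2 -1.59, SE 0.38, adjusted p = 0.00627), and that of Myc did not pass there (-1.02, adjusted p = 0.146).

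The genes most like the glycolytic set over all 48 libraries were Snrpb, a spliceosome protein (correlation 0.95 with the mean of the 8 scaled genes), Ran, a nuclear transport GTPase (0.93), Slc25a4, a mitochondrial ADP/ATP carrier (0.93), Tubb5, a tubulin (0.93), and Hnrnpa2b1, an RNA-binding protein (0.92). The libraries share their population, so these values mainly describe the order GC above naive and plasma cells: Ran had a median of 987 CPM in control and 1266 CPM in transgenic GC B cells, against 332 CPM in control naive B cells and 238 CPM in control plasma cells. Within the set, Ldha followed the mean most closely (0.95) and Slc2a1 did not follow it (-0.17). Each gene of the set is itself part of that mean, which raises its value, so these are not on the same footing as the genes above.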

How the data were processed

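The authors deposited 1 table of UMI counts per gene from bulk SCRB-seq libraries of sorted spleen cells, per the labels' protocols. Per the submitters' processing notes the aligner was STAR and the genome GRCm38.p5. How UMIs were collapsed, which STAR version and which annotation were used: not given in the sources used here. The counts were used unchanged. GENCODE M21 gave symbols and coordinates; 306 of 20007 identifiers had no symbol and held 0.424% of the UMIs. 1 further allele, shared by all 16 mice, and 1 marker gene are not reported here.

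edgeR 4.0.16 in R 4.3.3 was used (robust quasi-likelihood fit, TMM, filterByExpr with a minimum count of 10, Benjamini-Hochberg threshold 0.05 over all genes tested). Genotypes were compared within each population. Populations, and differences between genotype effects, were contrasts in a fit of all 48 libraries without a mouse term. The labels tie the 3 libraries of a mouse together by its number; their deviations from the group means correlated at a median of 0.0156 (GC and naive), 0.0211 (plasma and naive) and 0.037 (plasma and GC). Intervals are 1.96 SE either side. Fits were tested on simulated data. DESeq2 1.42.0 was an alternative. Other alternatives were another size factor, no TMM, no filter, no immunoglobulin genes, thinned counts, Y-linked expression as a covariate, each set of 8 mice, the mouse as a block, the groups fitted alone or together, and each library left out. Correlations used log2 CPM with a prior count of 2.

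Named were the 10 genes, Rel, up to 4 passing genes of each list, the 5 genes most like the set, and genes given as markers or as examples that did not pass (Hif1a, Gapdh). The members, the lists and the motifs were chosen with earlier results of these data known. No p-value was adjusted over a list alone. Replicates are separate mice.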

Additional observations from a re-analysis of the deposited data

Results flagged for a closer look

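Within the 60 sets of 8 libraries (10 genes in 6 groups), 7 held 1 library that lay far from the other 7 by Dixon's test at its 95% critical value; chance alone marks about 1 in 20 such sets. In transgenic GC B cells this held for Eno1, where mouse 16 stood at 252 CPM (195 UMIs) and the next at 174 CPM; without any 1 library the Eno1 effect in GC B cells was between 0.37 and 0.52. Slc2a1 was at 36.2 CPM in the GC B cells of control mouse 3. In naive B cells Gpi1 was at 419 CPM in control mouse 4 (64 UMIs), Pkm at 286 CPM in control mouse 1 (44 UMIs), Tpi1 at 134 CPM in transgenic mouse 15 (19 UMIs) and Pgam1 at 7.32 CPM in transgenic mouse 5, on 1 UMI. Slc2a1, Gpi1, Pkm and Tpi1 were all called between GC and naive B cells in both genotypes, and leaving out any 1 library ended none of those calls. Pgam1 was at 0 CPM in the plasma cells of control mouse 4, the only library of its group without a UMI.

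The transgene effect on Aldoa differed between populations by a test of the difference: 0.61 higher on the log2 scale in GC than in naive B cells, and -0.66 in plasma cells relative to GC B cells. Both comparisons use the same 16 GC libraries.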

How the results depend on the processing

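The count of 6 called genes in GC B cells was 5 or 6 without any 1 library, 5 with DESeq2 or thinned counts, 4 in mice 1 to 8 and 3 in mice 9 to 16, each with fewer libraries. In those sets of mice Eno1 kept its size but not its call (0.47 in each, edgeR adjusted p = 0.0637 and 0.0685). Pfkp lost its call in mice 1 to 8 (0.39, adjusted p = 0.198) and in mice 9 to 16 (0.22, adjusted p = 0.371). Pkm lost its call in mice 9 to 16 (0.24, adjusted p = 0.189). The 1 gene called for GC against naive effects was 0 in mice 1 to 8 and 0 in mice 9 to 16. The plasma cell count of 0 was 2 without TMM and 2 without immunoglobulin genes and TMM, and 0 to 1 without 1 library; the naive count of 0 was 0 to 1. The 8 called between GC and naive control cells were 5 in thinned counts, where 2799 genes were tested. Leaving out 1 library gave 6 to 7 for control plasma against naive and against GC B cells and 5 to 6 for transgenic plasma against naive.

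Signs turned without TMM for plasma against naive B cells in controls (Pfkp -0.41, Tpi1 -0.64, Pkm -0.91) and transgenic mice (-0.80, -0.52, -0.46). Slc2a1 turned too in plasma against GC B cells of controls (-1.25, and -0.26 with immunoglobulin genes left out too). Calls were also gained without TMM. Aldoa was called lower in plasma against naive B cells of both genotypes (-1.45 and -1.40), as was Eno1 in transgenic mice (-1.43). Slc2a1 was called lower in plasma against GC B cells of transgenic mice (-1.57). Values near 0 that crossed it were Aldoa in control plasma against naive cells (0.0071 without a filter), Aldoa in naive B cells (0.0242 thinned), Pkm in naive B cells (-0.13 to 0.0084 without 1 library, above 0 without control mouse 1), and in plasma cells Pfkp (0.18 in mice 1 to 8) and Gpi1 (-0.0215 without the plasma libraries of mice 9 and 10, and -0.0046 to 0.11 without 1 library, below 0 without transgenic mouse 8). The alternatives without those 2 plasma libraries and without both immunoglobulin genes and TMM were chosen after seeing the labels and the data. The titles of those 2 libraries carry tags that differ in form from those of the other plasma cell libraries. All naive titles share 1 form of tag and all GC titles another, so that tag and population cannot be told apart there. The cause of these shifts was not tested.

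With the mouse as a replicate block, the pairing of populations changed no call among these genes: the counts stayed at 8, 7 and 7 in controls and at 8, 6 and 7 in transgenic mice, and the Aldoa differences were 0.60 and -0.65. Shallow naive libraries limit Pfkp, Tpi1 and Slc2a1, which could not be tested there within the population.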

Other observations

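Slc16a3, the lactate exporter MCT4, had too few UMIs for the test but differed in the raw counts of GC B cells; it was picked after its values were seen. It had 10 UMIs over the 8 control libraries (0 to 6.22 CPM, median 1.69 CPM) and 75 over the 8 transgenic ones (4.45 to 20.7 CPM, median 12.1 CPM). Slc16a1, the lactate and pyruvate carrier MCT1, was tested and did not pass (log2 0.41, edgeR adjusted p = 0.0969). In plasma cells Slc16a3 had 3 UMIs in controls and 2 in transgenic mice.

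Txnip, which restrains glucose uptake, was lower in GC than in naive B cells of controls (fell by 2.49 on the log2 scale, adjusted p = 1.85e-38) while most glycolytic enzymes were higher, and it was higher in plasma cells than in GC B cells (2.05, adjusted p = 1.72e-34).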
